A study of Rattus norvegicus with 6 samples.

Results

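The transcripts of the mitochondrial genome were examined in dorsal root ganglia of diabetic and control rats. A transcript cluster is the set of array probes that the deposited annotation joins to a single transcribed region. Every cluster that this annotation places on chrM, with a locus class given, was taken, whatever its signal. This gave 40 clusters of 68842 tested, 25 on the plus strand of the reference and 15 on the minus strand. By locus class, 10 were coding, 2 ribosomal, 21 tRNA and 7 non-coding. The 21 tRNA clusters were all the clusters of that class in the table. The plus strand clusters together cover 15103 bases and the minus strand clusters 4562 bases.

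Sensory neurons have their cell bodies in the dorsal root ganglia, among satellite glia, Schwann cells, fibroblasts, vessels and macrophages. The rats were male Sprague-Dawley animals of 180 to 220 g at assignment. The 3 diabetic rats had been given 65 mg/kg streptozotocin by a single injection into the abdomen, a toxin of pancreatic beta cells that stops their insulin output, and were kept only if non-fasting glucose was at least 16.7 mM 1 week later. The 3 control rats had been given citrate buffer. Lumbar ganglia of both sides were pooled within each rat 8 weeks after the injection, and RNA of each rat was run on its own Affymetrix rat transcriptome array (RTA 1.0), so that spread below is spread between animals. The comparison addresses how RNA of the ganglia differs in diabetic rats.

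The mitochondrial genome is a small circle present in many copies per cell. It codes for a few subunits of the respiratory chain, for the RNAs of the mitochondrial ribosome, and for the tRNAs that this ribosome uses. Both strands are read by a dedicated polymerase into long precursors, and tRNAs that lie between the other genes are cut out, which frees the mRNAs and ribosomal RNAs. Nearly all of the mRNAs are read in the same direction, and ND6 is the mRNA read from the opposite strand. The other subunits of the chain, and the proteins that copy, transcribe and translate this genome, are made from nuclear genes. In sensory neurons with long axons the respiratory chain is a main source of ATP, and altered mitochondrial function has been described in diabetic neuropathy.

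Array values are log2 signals, on which a difference of 1 is a doubling. Array medians over all clusters lay between 3.95 and 4.15, and the 90th percentile of the 1153 negative control probe sets between 6.06 and 6.67. All 12 sensory neuron markers exceeded that percentile on every array, with a median level of 15.57. Since each array measures a whole ganglion extract, fewer cells of a type and less RNA per cell cannot be told apart. Values below are in the order of replicates 1, 2 and 3, and a difference is the diabetic minus the control mean with the 95% interval of the limma fit. Each cluster has probes of its own (30 probes, 40 for ATP6), so signals of different clusters are not compared as amounts of RNA.

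The mRNA and ribosomal RNA clusters of the plus strand were among the brightest on the array and sat at its upper end in every rat. The highest signal of any cluster was 19.59, 19.93 and 19.38 in the control rats and 19.84, 19.89 and 19.93 in the diabetic rats. COX1 gave or shared this highest signal on all 6 arrays. All 9 coding clusters of the plus strand and both ribosomal clusters lay within 0.3 of it on each array, a distance chosen after the values were seen. They made up 11 of the 46 clusters of the whole array that did so on all 6 arrays. The cluster just inside the distance was ND3, with gaps of 0.11 to 0.26, and the cluster just outside was a tRNA at bases 2665 to 2739, with gaps of 0.40 to 1.12. Clusters were even tied at the top, to within 0.0001: 27 clusters on control replicate 3 and 13 on control replicate 1, the arrays with the lowest upper ends. On diabetic replicates 2, 1 and 3 the counts were 8, 6 and 2, and on control replicate 2 COX1 stood alone. The tied clusters included the 4 mitochondrial clusters COX1, CYTB, ND1 and ND4 on control replicates 1 and 3 and on diabetic replicate 2.

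**Figure D1:**
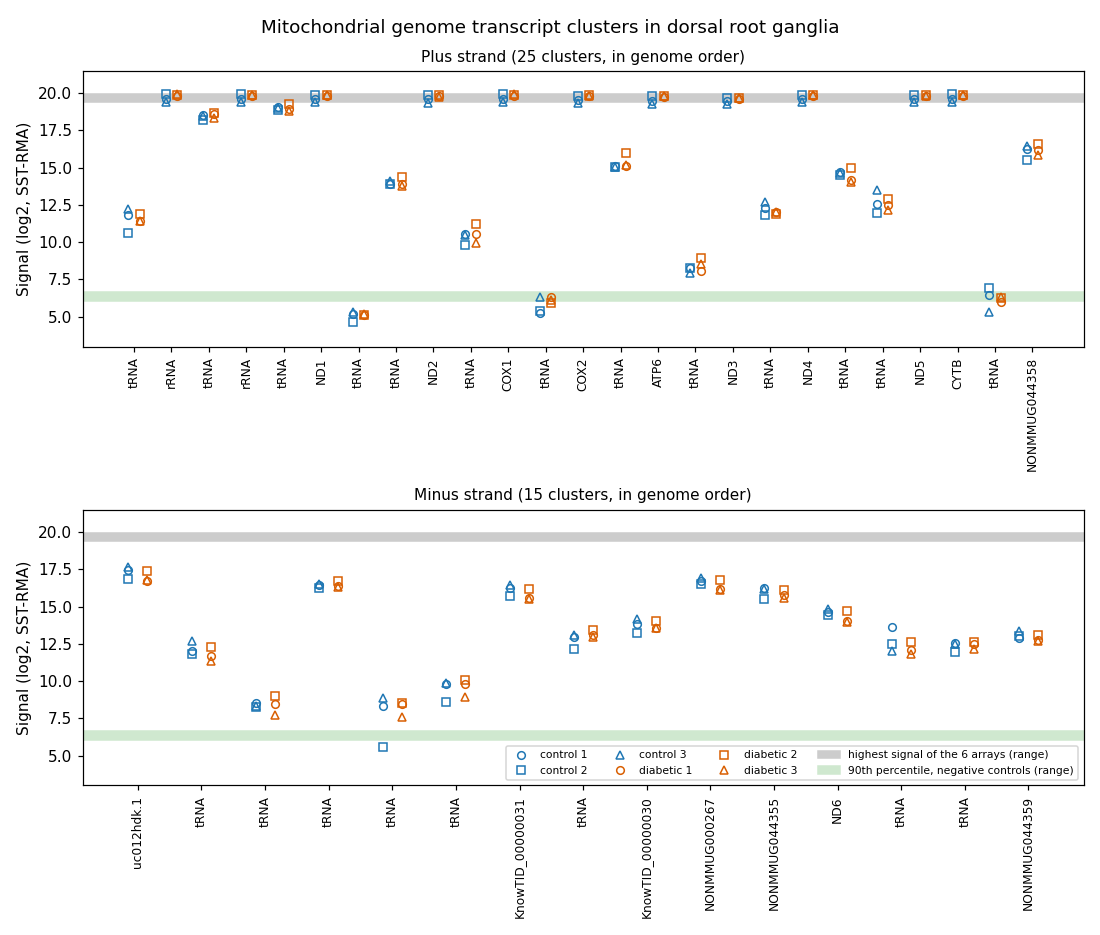
Log2 signal of the 40 mitochondrial clusters on each of the 6 arrays, in genome order, for the plus strand (25 clusters, upper panel) and the minus strand (15 clusters, lower panel), with open symbols for single rats and bands for the range of the arrays' highest signal and of the 90th percentile of negative controls. Coding and ribosomal clusters of the plus strand lie in or close below the upper band, from 19.27 (ND3, control replicate 3) to 19.93, while ND6 lies near 14.42 and tRNA clusters run from 5.09 to 18.99.

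The 2 ribosomal clusters carry the RNAs of the small and large subunits of the mitochondrial ribosome. The shorter, at bases 68 to 1025, read 19.59, 19.92 and 19.38 in control rats and 19.84, 19.89 and 19.92 in diabetic rats. The longer, at bases 1094 to 2664, read 19.59, 19.93 and 19.38 against 19.84, 19.89 and 19.90. Both stayed within 0.03 of the array's highest signal, and the groups overlapped in each.

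Complex I, the NADH dehydrogenase that feeds electrons into the chain, has 6 clusters here, 5 of them on the plus strand. ND1 (bases 2740 to 3694) read 19.59, 19.89 and 19.38 in control and 19.83, 19.89 and 19.86 in diabetic rats. ND2 (bases 3904 to 4942) read 19.57, 19.89 and 19.36 against 19.81, 19.87 and 19.76. Control replicate 3 was the lowest array for ND1 and ND2, and also had the lowest upper end. ND3 (bases 9451 to 9798), the dimmest of the 11 clusters, read 19.47, 19.67 and 19.27 against 19.62, 19.68 and 19.67. ND4 (bases 9870 to 11537) read 19.59, 19.89 and 19.38 against 19.83, 19.89 and 19.85. ND5 (bases 11736 to 13565) read 19.59, 19.87 and 19.38 against 19.83, 19.89 and 19.78. In each of these clusters the control range took in at least 1 diabetic value.

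CYTB, the cytochrome b of complex III, lies at bases 14136 to 15278 and read 19.59, 19.91 and 19.38 in control and 19.84, 19.89 and 19.86 in diabetic rats. COX1 and COX2 are catalytic subunits of complex IV, cytochrome c oxidase, which passes electrons to oxygen. COX1 (bases 5323 to 6867) read 19.59, 19.93 and 19.38 against 19.84, 19.89 and 19.93, which are the highest signals of the arrays themselves. COX2 (bases 7006 to 7689) read 19.57, 19.83 and 19.36 against 19.79, 19.86 and 19.79. ATP6, a subunit of the proton channel of ATP synthase (complex V), read 19.50, 19.83 and 19.29 against 19.73, 19.80 and 19.79. Its cluster of 1625 bases, 7758 to 9382, reaches from the tRNA cluster after COX2 to the tRNA cluster before ND3. No cluster carries the symbol ATP8, COX3 or ND4L, which does not show that these genes went unmeasured. Whether the clusters named ATP6 and ND4 also take in their transcripts was not tested.

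The 11 clusters at the upper end differed between groups by 0.19 to 0.25, all higher in diabetic rats. The arrays' highest signal differed by 0.25 in the same direction, but it equals the COX1 signal on all 6 arrays. It is therefore no measure separate from these clusters. None passed the test, with limma adjusted p-values of 0.69 to 0.72. Without control replicate 3 the differences ran from 0.08 to 0.12, and without control replicate 2 from 0.29 to 0.40. After quantile normalization, which gives every array the same upper end, their differences ran from -0.01 to 0.06 with 2 of 11 lower. Measured as the distance below each array's highest signal, ND3 lay 0.16 below in control rats and 0.23 below in diabetic rats on average. No fold change is given for these clusters, because a transcript that is near the upper end in both groups can differ in amount without differing in signal.

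**Figure D2:**
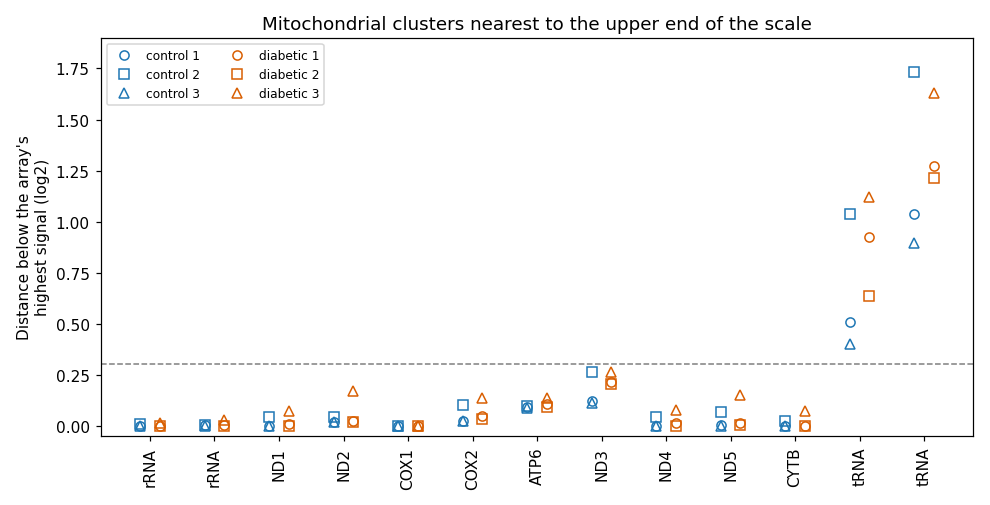
Distance in log2 units between each array's highest signal and the 11 mitochondrial clusters within 0.3 of it (dashed line) on all arrays, with the 2 brightest tRNA clusters for comparison and a symbol for each rat. COX1 is at 0 on all 6 arrays, ND3 reaches 0.26, and the tRNA clusters at bases 2665 to 2739 and 1026 to 1093 lie between 0.40 and 1.73.

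ND6, the complex I subunit coded on the minus strand at bases 13543 to 14061, was the coding cluster with room on the scale. It read 14.62, 14.40 and 14.82 in control rats, a mean of 14.61 ± 0.21 (SD, n = 3). In diabetic rats it read 14.06, 14.69 and 13.94, a mean of 14.23 ± 0.40 (SD, n = 3). Diabetic replicates 1 and 3 lay below all control rats, while diabetic replicate 2 lay above 2 of them, so the groups overlapped. The difference of -0.39 (SE 0.21, interval -0.87 to 0.10) did not pass the test (limma adjusted p = 0.67). On the linear scale the interval runs from 0.55-fold to 1.07-fold. Without diabetic replicate 2 the difference was -0.62 (adjusted p = 0.36), and without diabetic replicate 3 it was -0.24 (adjusted p = 0.97). ND6 shares its last 23 bases with the opposite strand's ND5.

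The other 6 minus strand clusters outside the tRNAs are non-coding RNAs, and most lie opposite the genes at the upper end of the scale. Annotated from mouse transcripts placed on the rat genome, they bear identifiers and no gene names. The labels do not state how far the labelled cDNA kept the strand, so a part of their signal from the opposite strand was not tested. All 6 had lower means in diabetic rats and none passed the test. With ND6 that made 7 of 7 lower with a median difference of -0.36, where 61.8% of all clusters were lower with a median of -0.04. Most clusters are far dimmer than these 7. Of nuclear coding clusters above 10 on the log2 scale, nearer to them in level, 35.1% were lower with a median of 0.07. Without control replicate 3 the median of the 7 was -0.20, and without diabetic replicate 2 it was -0.57. The count was 6 of 7 without control replicate 1 or 3, or without diabetic replicate 1 or 3.

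The brightest of these, uc012hdk.1 at bases 1094 to 2670, is annotated as an antisense RNA of the mouse mitochondrion and covers 1571 bases opposite the longer ribosomal cluster. It read 17.45, 16.85 and 17.63 in control and 16.74, 17.38 and 16.75 in diabetic rats. The means were 17.31 ± 0.41 and 16.96 ± 0.37 (SD, n = 3 each), with a difference of -0.36 (interval -0.91 to 0.20, limma adjusted p = 0.71). Diabetic replicate 2 lay above control replicate 2, so the groups overlapped. NONMMUG000267, at bases 8238 to 8604 opposite ATP6, had the smallest p-value of the 40 clusters. It read 16.72, 16.51 and 16.91 in control and 16.17, 16.76 and 16.08 in diabetic rats. Its means were 16.71 ± 0.20 and 16.34 ± 0.37 (SD, n = 3 each). The difference was -0.38 (SE 0.20, interval -0.83 to 0.07, limma adjusted p = 0.67), and diabetic replicate 2 again lay within the control range. Without that replicate the difference of NONMMUG000267 was -0.59 and that of uc012hdk.1 -0.57. Without diabetic replicate 3 that of NONMMUG000267 was -0.25. Without control replicate 2 that of uc012hdk.1 was -0.59, and without control replicate 3 it was -0.20.

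Of the remaining 4 minus strand non-coding clusters, KnowTID_00000031 (bases 6601 to 6863, opposite COX1) read 16.22, 15.70 and 16.42 against 15.56, 16.15 and 15.52, a difference of -0.37. NONMMUG044359 (bases 15755 to 16137) read 12.87, 13.00 and 13.34 against 12.73, 13.11 and 12.70, a difference of -0.22. NONMMUG044355 (bases 9195 to 9881, opposite ND3 and its neighbours) read 16.23, 15.54 and 16.19 against 15.77, 16.14 and 15.55, a difference of -0.17. In these 3 clusters diabetic replicate 2 was the highest of its group and exceeded at least 1 control rat. KnowTID_00000030 (bases 7479 to 7692, opposite COX2) read 13.83, 13.25 and 14.18 against 13.55, 14.06 and 13.58. Its difference was -0.02, and when each array was centred on its own median this difference was 0.05. The plus strand's non-coding cluster, NONMMUG044358 at bases 15348 to 16137, covers NONMMUG044359 on the opposite strand. It read 16.28, 15.53 and 16.47 in control and 16.21, 16.56 and 15.82 in diabetic rats, a difference of 0.10 (interval -0.52 to 0.72).

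**Figure D3:**
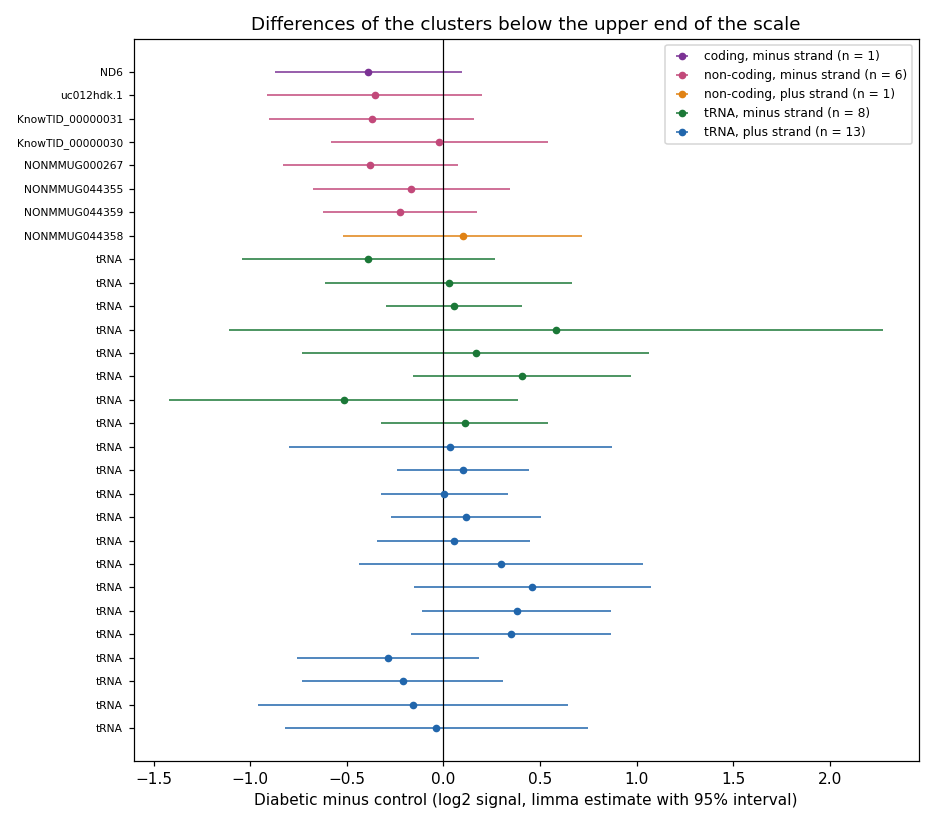
Diabetic minus control difference in log2 signal for the 29 mitochondrial clusters below the upper end of the scale, with points for the limma estimate, bars for its 95% interval and colours for locus class and strand. ND6 and the 6 minus strand non-coding clusters lie left of 0, tRNA clusters lie on either side, and every interval contains 0.

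The tRNA clusters spread over nearly the whole range of the array. Mean levels ran from 5.09 to 18.99 with a median of 12.15, 2 of 21 above 18, 9 between 12 and 17 and 10 below 12. Cluster lengths were 64 to 75 bases, apart from 1 of 130 bases at bases 11606 to 11735. The files identify these clusters by Ensembl transcript and position only, so no amino acid is given for any. On all arrays 17 of 21 exceeded the 90th percentile of negative controls. Of the other 4, the cluster at bases 3695 to 3763 exceeded it on 0 arrays, that at bases 6937 to 7004 on 2, that at bases 15280 to 15346 on 3 and that at bases 5185 to 5252 on 5. The last also varied most, reading 8.35, 5.60 and 8.88 in control and 8.43, 8.56 and 7.58 in diabetic rats.

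The 2 brightest tRNA clusters flank the longer ribosomal cluster on the plus strand. The cluster at bases 2665 to 2739 (ENSRNOT00000049156) lies between that cluster and ND1. It read 19.08, 18.89 and 18.98 in control and 18.91, 19.25 and 18.81 in diabetic rats, a difference of 0.01 (interval -0.32 to 0.33) whose sign turned after quantile normalization, to -0.14. The cluster at bases 1026 to 1093 (ENSRNOT00000045072) lies between the ribosomal clusters. Its values were 18.56, 18.20 and 18.48 in control and 18.57, 18.67 and 18.30 in diabetic rats, a difference of 0.10 (interval -0.24 to 0.44). These intervals were the narrowest among the tRNA clusters, followed by that of the minus strand cluster at bases 5081 to 5152, whose difference was 0.06 (interval -0.30 to 0.41).

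A single tRNA cluster, and a single cluster of the 40, had groups without overlap. The cluster at bases 7693 to 7756 (ENSRNOT00000041978) lies on the plus strand between COX2 and ATP6. It read 15.08, 15.01 and 15.05 in control and 15.12, 15.95 and 15.21 in diabetic rats. Means were 15.05 ± 0.04 and 15.43 ± 0.46 (SD, n = 3 each), and diabetic replicates 1 and 3 lay close above the highest control rat. The difference of 0.38 (interval -0.11 to 0.87) did not pass the test (limma adjusted p = 0.68), and it was 0.12 without diabetic replicate 2. That 1 of 40 clusters, or 2.5%, compares with 13.3% of all clusters whose groups did not overlap, or 4.96% when only those higher in diabetic rats are counted.

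Among the other tRNA clusters of small p-value, the cluster at bases 6865 to 6933 (ENSRNOT00000040283) lies on the minus strand next to COX1. It read 12.98, 12.17 and 13.10 in control and 13.12, 13.40 and 12.95 in diabetic rats. Its difference of 0.41 (interval -0.16 to 0.97, limma adjusted p = 0.69) was 0.12 without control replicate 2. The dim cluster at bases 6937 to 7004 (ENSRNOT00000051129), on the plus strand before COX2, read 5.22, 5.40 and 6.33 against 6.30, 5.91 and 6.12. Its difference of 0.46 (interval -0.15 to 1.07, limma adjusted p = 0.68) was 0.80 without control replicate 3 and 0.25 without control replicate 1. The minus strand cluster beside ND6, at bases 14062 to 14130, had the lowest difference of all 40, -0.52 (interval -1.42 to 0.39). Its values were 13.65, 12.48 and 11.99 in control and 12.10, 12.65 and 11.82 in diabetic rats, so control replicate 1 alone stood above the diabetic range.

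As a class, 15 of 21 tRNA clusters were higher and 6 lower in diabetic rats, with a median difference of 0.06. On the plus strand 9 were higher and 4 lower (median 0.05), and on the minus strand 6 were higher and 2 lower (median 0.08). The sign of the class median turned without control replicate 2 (-0.04) and without diabetic replicate 2 (-0.07). The 8 minus strand tRNA clusters thus had mostly higher means, while ND6 on the same strand had a lower one. A difference between the strands or classes was not tested.

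Of all 40 mitochondrial clusters, 0 passed an adjusted p of 0.05 in limma, against 0.00581% of all clusters, which is 4 of 68842. At an unadjusted p of 0.05 the count was also 0 of 40, against 7.85% of all clusters. All 40 intervals contained 0. For the 29 clusters below the upper end, the intervals reached 0.33 to 1.69 to either side of the estimate, with a median of 0.53. These intervals are not adjusted for the 68842 clusters tested, and differences beyond them could also fail after adjustment. The Schwann cell marker Pmp2, with a difference of -2.42, had a limma adjusted p of 0.50. Means of 27 clusters were higher and 13 lower, with a median difference of 0.11, but 11 of the 27 were those at the upper end. Among the 29 clusters below it, 16 were higher and 13 lower, with a median of 0.03. This balance rested on single rats: 22 of the 29 were lower without control replicate 2 (median -0.26) and 21 without diabetic replicate 2 (median -0.12). The sign of their median also turned with quantile normalization (-0.02) and array weights (-0.06). The median of all 40 was -0.02 without control replicate 2 and -0.04 without diabetic replicate 2.

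In most clusters the same few arrays were highest or lowest, and these came from both groups. Among the 29 clusters below the upper end, the highest array was control replicate 3 in 13 and diabetic replicate 2 in 13. The lowest was control replicate 2 in 15 and diabetic replicate 3 in 10. For ND6 the order from high to low was control 3, diabetic 2, control 1, control 2, diabetic 1 and diabetic 3, and the mean of ND6 with the 6 minus strand non-coding clusters gave the same order. Minus strand tRNA clusters deviated from their mean over all arrays by 0.29, -0.60 and 0.23 in control rats and 0.06, 0.42 and -0.40 in diabetic rats. Plus strand tRNA clusters deviated by 0.02, -0.27 and 0.12 in control rats and by -0.06, 0.31 and -0.11 in diabetic rats.

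**Figure D4:**
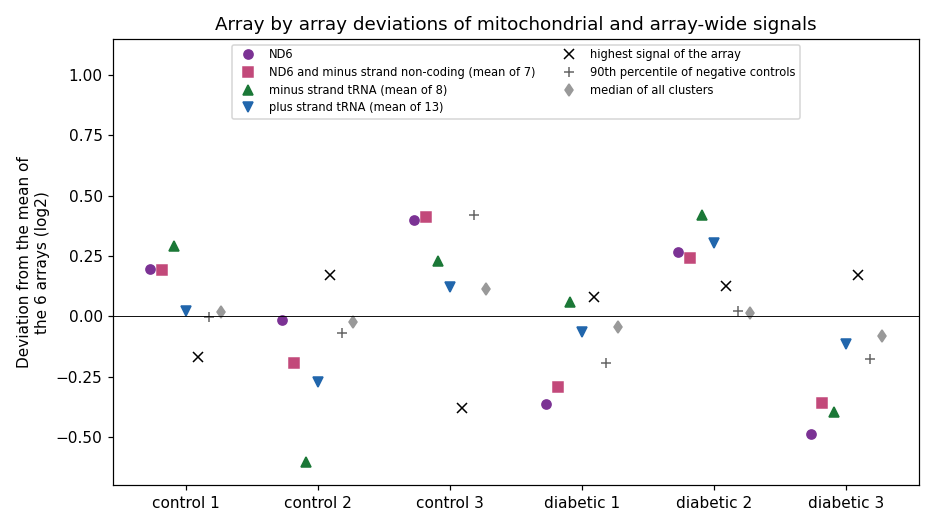
Deviation of each array from the mean of the 6 arrays, in log2 units, for ND6, for class means of mitochondrial clusters and for 3 measures of the whole array, with a symbol for each measure. ND6 and the minus strand group are highest on control replicate 3 and lowest on diabetic replicate 3, tRNA groups are highest on diabetic replicate 2 and lowest on control replicate 2, and the arrays' highest signal is lowest on control replicate 3.

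Other values moved with these arrays. The 90th percentile of negative controls, 6.67 on control replicate 3 and 6.27 on diabetic replicate 2, was highest on the arrays where ND6 was highest. Diabetic replicates 1 and 3, lowest for ND6, had the lowest percentiles, 6.06 and 6.07. Skeletal muscle markers, of a tissue rich in mitochondria, had a median level of 5.54 on control replicate 2 and 4.23 to 4.47 on the other arrays. All 10 muscle markers were lower in diabetic rats, 1 of them without overlap, with a median difference of -0.44. Their summed level was 8.22 to 9.99 in control and 8.26 to 8.41 in diabetic rats, and only 1 of the 10 exceeded the negative control percentile on all arrays. All 9 Schwann cell markers were lower in diabetic rats without overlap, which holds for 8.32% of all clusters, with a median difference of -0.52 and summed levels of 18.7 to 18.9 in control and 18.1 to 18.6 in diabetic rats. Fibroblast markers had a median difference of -0.99, with 4 of 6 lower and 3 of them without overlap, and summed levels of 15.05 to 16.26 in control and 15.97 to 16.10 in diabetic rats. Satellite glia markers had a median of -0.30, with 5 of 7 lower, and summed levels of 15.51 to 15.89 and 15.34 to 15.76. Macrophage markers had a median of 0.53, with 5 of 6 higher and 2 of 6 above the negative control percentile on all arrays, and summed levels of 8.55 to 9.44 and 9.40 to 9.95. Medians were 0.09 for 6 endothelial, -0.02 for 6 adipocyte and -0.17 for 6 erythrocyte markers. The summed level of the 12 sensory neuron markers was 20.6 to 20.9 in control and 20.7 to 20.9 in diabetic rats. The part of these measures in the mitochondrial values was not tested.

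Nuclear genes for mitochondrial gene expression, the respiratory chain and mitochondrial content gave no call either. Of 243 listed genes, 181 were higher and 62 lower in diabetic rats (median 0.07), 15 had an unadjusted p under 0.05, where 7.85% of all clusters did, and 0 passed adjustment, with 0.53 as the smallest limma adjusted p. Bright nuclear coding clusters, those above 10 on the log2 scale, had the same median of 0.07 over 3172 clusters. Of these, 2059 were higher and 35.1% lower, where 61.8% of all clusters were lower. The listed genes had a median level of 8.08, so many were dimmer than these clusters.

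Among 25 genes for transcription and replication of the mitochondrial genome, 16 were higher and 9 lower, with a median of 0.06. Tfam, which packages mitochondrial DNA and starts its transcription, had means of 7.75 ± 0.17 in control and 7.76 ± 0.05 in diabetic rats (SD, n = 3 each). Polrmt, the mitochondrial RNA polymerase, read 4.85 ± 0.02 and 4.83 ± 0.02, below the 90th percentile of negative controls. Ppargc1a, a coactivator that raises mitochondrial gene expression, read 9.16 ± 0.10 and 9.07 ± 0.19. The 3 genes of smallest p-value were Gabpb1 (a subunit of nuclear respiratory factor GABP), with a difference of 0.23, Primpol (0.23) and Top1mt (0.15), the mitochondrial topoisomerase, which was below that percentile on all arrays. None of these differences passed the test, and Gabpb1 lay below that percentile on control replicate 3.

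Of 30 genes for mitochondrial RNA processing and decay, 20 were higher and 10 lower, with a median of 0.04. Lrpprc, which stabilises mitochondrial mRNAs, read 12.01 ± 0.13 in control and 11.98 ± 0.11 in diabetic rats. Fastk, whose mitochondrial form is known in mouse to be needed for ND6 mRNA, read 6.80, 7.01 and 6.87 in control and 7.39, 7.16 and 7.48 in diabetic rats. All diabetic rats lay above all control rats, with a difference of 0.45 (interval 0.16 to 0.74) and a limma adjusted p of 0.54. Tbrg4 (0.42), of the same protein family, and Nsun3 (-0.44), which modifies a mitochondrial tRNA, had adjusted p-values of 0.59 and 0.62. Among 22 genes that charge mitochondrial tRNAs, 17 were higher and 5 lower (median 0.06), and Sars2, the mitochondrial seryl-tRNA synthetase, had the smallest p-value, with a difference of 0.39 and an adjusted p of 0.54. Its 3 control values, 5.93, 6.10 and 5.88, lay below the 90th percentile of negative controls. Kars1 (0.22) and Rars2 (0.15), the lysyl and arginyl enzymes, followed.

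The nuclear coded subunits of complexes I to V, where complex II has no mitochondrially coded subunit, had medians at or slightly above 0, and 0 of 74 passed adjustment. For complex I, 28 of 36 were higher with a median of 0.12. Its 3 genes of smallest p-value were Ndufa13, with means of 10.06 ± 0.22 and 10.62 ± 0.22 and a difference of 0.56 (limma adjusted p = 0.55), Ndufb7 (0.37) and Ndufs7 (0.34). In the other complexes 4 of 4 were higher for complex II (median 0.07), 6 of 9 for complex III (0.01), 9 of 12 for complex IV (0.08) and 7 of 13 for complex V (0.003). Cox4i1, a nuclear subunit of cytochrome c oxidase, read 11.24 ± 0.13 and 11.33 ± 0.19. Of complex II the 3 genes of smallest p-value were Sdhb (0.12), Sdhd (0.07) and Sdhc (0.06), and of complex III Uqcrc1 (0.36), Uqcr11 (0.18) and Cyc1 (0.11). Of complex IV they were Cox6a1 (0.30), Cox6b1 (0.20) and Cox6b2 (-0.08, below the negative control percentile on all arrays). Of complex V they were Atp5mc2 (0.31), Atp5f1a (0.20) and Atp5f1d (0.16). On control replicate 3, Ndufs7 and Atp5f1d lay below the negative control percentile, at 6.50 and 6.47.

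The mitochondrial ribosome joins the RNAs of the 2 ribosomal clusters to nuclear coded proteins. Of 77 such proteins, 64 were higher and 13 lower (median 0.09). Mrps18b read 10.41, 10.37 and 10.32 in control and 11.08, 11.16 and 10.91 in diabetic rats, the smallest p-value of all listed genes, with a difference of 0.68 (interval 0.40 to 0.96) and a limma adjusted p of 0.53. Mrps18a (0.41) and Mrpl38 (0.38) followed, Mrpl38 lying below the negative control percentile in control replicates 1 and 3. Among 15 genes often used to gauge mitochondrial content, 10 were higher and 5 lower (median 0.08). Cs, citrate synthase, read 10.78 ± 0.33 and 10.90 ± 0.09, and Hspd1, a chaperone of the matrix, had a difference of -0.31 with an adjusted p of 0.62. Slc25a3, the phosphate carrier, differed by 0.22 and Cycs, cytochrome c, by -0.23.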

How the data were processed

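The authors deposited log2 signals per transcript cluster, gene-level SST-RMA per the file headers, and the submitters' processing notes also list RMA, with no version. RMA removes background, gives all arrays the same distribution of probe signals and joins the probes of each cluster into a log2 value. The annotation of 23 of the 40 clusters names the assembly Rnor_6.0, and positions are given as it lists them. Of 70580 probe sets, 1738 controls were left out. Detection calls, absent in all 423480 cases, were not used. Both deposited tables held the same values.

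Diabetic minus control was fitted over 68842 clusters with limma 3.58.1 (R 4.3.3): lmFit with a group term alone, eBayes with the trend option on, Benjamini-Hochberg adjustment over all clusters, and a threshold of 0.05. The script was also tested on simulated data. With 3 against 3 rats the smallest two-sided p of an exact permutation test is 0.1, so none was run. SD is over a group's 3 rats, and SE belongs to the difference estimated by limma. The number of arrays limits the precision.

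The members and the gene lists were chosen with earlier results of these data known, so no p-value is given over a list. A listed gene was represented by its brightest cluster. The rule named every coding and ribosomal cluster, the 4 brightest and the 4 of smallest p-value of the others, the 3 of smallest p-value of each list, and 6 fixed genes. Further clusters were named after their values were seen. Equal replicate numbers are not stated to pair the rats, and no pairing was used in the main fit. Correlations of the deviations of same-numbered arrays were 0.04, -0.12 and -0.13, which with 3 arrays a group cannot decide whether rats were paired. Alternatives were other normalizations, variance settings, weights and filters, a replicate block, and leaving out each rat. Whether probes also bind nuclear copies of mitochondrial sequence was not tested.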

Additional observations from a re-analysis of the deposited data

How the results depend on the processing

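The count of 0 mitochondrial clusters past an adjusted p of 0.05 was the same under all alternatives run (median centring, quantile normalization, no intensity trend, robust estimation, no moderation of the variance, array weights, a filter at the median level, the replicate block, the series matrix, and leaving out each rat), where the smallest adjusted p of a member was 0.33, without control replicate 2. With the replicate block the smallest adjusted p was 0.75, the count at an unadjusted p of 0.05 was 0, and the block changed no other call. The count at an unadjusted p of 0.05, 0 in the report, was 1 with median centring (8.18% of all clusters) and 1 with quantile normalization (7.68%), the tRNA cluster at bases 7693 to 7756 each time, and 4 with array weights, against 10.9% of all clusters. Leaving out single rats gave 0 to 13: 13 without control replicate 2, 10 of them at the upper end of the scale, against 12.3% of all clusters, 6 without diabetic replicate 2 against 10.3%, 3 without control replicate 3 against 6.02%, and 2 without diabetic replicate 1 against 4.99%. The cause was not tested.

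Single clusters were followed here only for the 19 that the rule named. Others changed sign as well: 14 of 21 tRNA clusters were lower without control replicate 2, against 6 of 21 in the main fit. Of the 19, ND1 and ND4 turned to -0.006 each with quantile normalization. ENSRNOT00000049156 turned to -0.14 with quantile normalization and -0.066 with array weights. Without single rats it ran from -0.12 (without diabetic replicate 2) to 0.10 (without diabetic replicate 3), and was -0.04 without control replicate 2. ENSRNOT00000045072 was -0.0056 without control replicate 2. The median of all 40 clusters was 0.007 to 0.18 under the other normalizations, -0.04 to 0.21 without single rats, and 0.03 over the 29 clusters below the upper end, an alternative chosen after seeing the data. Counts of the nuclear lists stayed on the same side of the threshold under the alternatives run for them. Their medians, as small as 0.003 for complex V, have no such threshold. Differences of signals near the upper end, or below the 90th percentile of negative controls, are bounded by the scale or the background of the array.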
